A study of Mus musculus with 12 samples.

Results

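Gata2, Gata4, Gata5 and Gata6 are the 4 mouse genes, of 21911 protein-coding genes in the annotation, that were chosen here as GATA factors with main roles outside the mammary lineage. GATA factors are zinc-finger transcription factors that bind the sequence GATA in regulatory DNA. Gata2 maintains blood stem and progenitor cells and is also used in endothelium, mast cells and neurons. Gata4, Gata5 and Gata6 act in the heart, and in gut, lung and other organs with an endodermal part. None of the 4 is the family member that specifies the luminal mammary epithelium, which is Gata3. Each gene was examined at every annotated transcript start plus or minus 1000 bp, in its body and within 50 kb on either side.

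The assay was ATAC-seq: a transposase cuts and tags DNA where chromatin is open, and a peak in its reads marks an accessible stretch. There were 12 libraries in 4 groups of 3: 4T1 treated with 1 µM DAC for 48 h, untreated 4T1, B16F10 treated with 0.1 µM DAC for 48 h, and untreated B16F10. DAC is decitabine, a cytidine analogue; once incorporated during replication it captures the maintenance methyltransferase, and methylation is lost as cells divide. 4T1 is a mouse mammary carcinoma line and B16F10 a mouse melanoma line; the labels name no genetic change in either, dead cells were removed before the assay, and nothing in them says that the 3 libraries of a group came from separate cultures, so the spread between them may be technical. The dose was higher in 4T1, so the lines are set side by side, and an effect of dose and one of the line cannot be told apart. RNA, protein and DNA methylation of these genes were not measured here.

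The peak lists held 108083 to 118603 peaks on the 21 chromosomes in DAC-treated 4T1 and 89780 to 94229 in untreated 4T1, against 54032 to 58468 in DAC-treated B16F10 and 49622 to 53316 in untreated B16F10. Among regions called in all 6 libraries of 4T1, the median fold enrichment was 8.41 to 8.53 in the DAC libraries and 10.6 to 10.7 in the control libraries; in B16F10 it was 9.64 to 10.2 in the DAC libraries and 10.7 to 11.0 in the control libraries. Longer lists with lower fold therefore go with the DAC label in both lines, with a wider gap in 4T1. Their part in the calls that follow was not tested beyond the alternatives given beside them. The lines carried the marks of their labels: the starts of 8 of 8 mammary epithelial marker genes were called in all 6 4T1 libraries, against 1 of 8 (Elf5) in all 6 B16F10 libraries, and the starts of 2 of 7 melanocyte markers (Mitf and Pmel) were called in all 6 4T1 libraries, against 6 of 7 (all but Tyr) in all 6 B16F10 libraries. The leukocyte genes Ptprc, Cd3e and Itgam had no start called in any library of either line.

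Gata2 lies at chr6:88193891-88207032 on the plus strand (mm10). It has a distal first exon, used mainly in blood and neural cells, and a proximal first exon used more widely; distances below run from the distal start in the direction of transcription, and negative ones lie upstream. The proximal start, 4.44 kb downstream of the distal one, was open in all 12 libraries, as were the starts of 50.2% of all genes. Its strength is given as a percentile, the rank of the peak's −log10 q value within its own library's list, where 100 is the strongest peak. The percentiles were 59.5, 62.1 and 56.5 in DAC-treated 4T1 and 58.3, 60.8 and 56.7 in untreated 4T1. In B16F10 they were 94.0, 95.5 and 94.2 with DAC and 97.2, 94.3 and 93.5 without. Treated and untreated percentiles thus overlapped in both lines, while every B16F10 value lay above every 4T1 value. Lists of different length give different percentiles, so shared regions were also ranked among themselves. Among the 67077 regions called in all 6 4T1 libraries, the proximal start ranked 39.6, 39.5 and 37.2 with DAC against 44.7, 45.4 and 41.4 without. Every DAC library lay below every control library there, as in 30.7% of these regions (exact permutation p of 0.10, adjusted p = 0.16), and ranking by fold enrichment gave 19.1 ± 1.41 with DAC and 33.0 ± 2.05 without (SD, n = 3 each). Among the regions called in all 12 libraries, the proximal start stood at 25.2 ± 1.81 in untreated 4T1 and at 89.6 ± 3.95 in untreated B16F10 (SD, n = 3 each). The difference was -64.4 percentile points, with an exact two-sided permutation p of 0.10, the smallest that 3 libraries against 3 allow, and 0.14 after Benjamini-Hochberg adjustment over 22572 regions. In 38.4% of those regions every untreated 4T1 library ranked below every untreated B16F10 library, so the order by itself is common. The proximal Gata2 start was therefore a mid-ranking peak in the mammary line and one of the stronger peaks of the melanoma line.

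The distal Gata2 start was closed in 11 of 12 libraries; DAC-treated 4T1 library 1 had a peak there at percentile 0.32, among the weakest of its list. A region at -4.10 kb, in an intron near the start of Gm38708, a long noncoding RNA gene on the opposite strand upstream of Gata2, was open in all 12 libraries. Its percentiles were 83.2, 85.4 and 84.5 in DAC-treated 4T1 and 85.2, 87.8 and 86.7 in untreated 4T1, and 79.5, 80.9 and 86.1 in DAC-treated B16F10 and 81.8, 82.8 and 79.0 in untreated B16F10. Among the regions called in all 12 libraries it ranked 67.7 ± 2.03 in untreated 4T1 and 63.3 ± 4.48 in untreated B16F10 (SD, n = 3 each), so the lines differed less here than at the proximal start. Ranked by fold enrichment, the order was reversed, at 68.7 ± 3.00 and 73.2 ± 6.27. Among the regions shared by the 6 4T1 libraries it ranked 74.0 ± 1.31 with DAC and 81.6 ± 1.36 without. Every DAC library lay below every control library there, as in 30.7% of these regions.

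A Gata2 intron was open in one line and not in the other. A region at chr6:88203030-88204386, with its summit 9.63 kb downstream of the distal start, was called in all 6 4T1 libraries, at percentiles 78.2, 83.7 and 80.7 with DAC and 82.6, 80.5 and 81.4 without, and in no B16F10 library. The percentiles overlapped, but among the regions shared by the 6 4T1 libraries it ranked 68.4 with DAC and 74.6 without on average, each DAC library below each control library. It lies within 1000 bp of an annotated retained-intron transcript start, and so counts as a start region under the rule used. Its 5′ part holds an E-box, a binding site of basic helix-loop-helix factors, written CATCTG. On the same strand, 8 bases further on, stands the GATA site AGATAA, and the pair spans chr6:88203185-88203204, 9.29 kb from the distal start. This pair is shown because an intronic Gata2 element with exactly this arrangement is known from mouse blood stem cell formation, where GATA factors and their E-box-binding partners occupy it. The stretch from chr6:88203135-88203254 on the plus strand is printed with the E-box and the GATA site in capitals.
Gata2 intron: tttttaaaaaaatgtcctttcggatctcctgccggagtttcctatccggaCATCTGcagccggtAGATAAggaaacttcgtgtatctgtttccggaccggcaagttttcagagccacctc
The pair was covered by a peak in 2 of 3 DAC libraries and 3 of 3 control libraries of 4T1 and in 0 of 6 libraries of B16F10. It was the only match on either strand within 50 kb of any of the 4 genes. In 300-base windows on peak summits, the same pair occurred in 9 of 146901 4T1 regions (0.00613%) and in 6 of 79494 B16F10 regions (0.00755%); the Gata2 match itself lies outside the window around its region's summit. A match describes letters, and says nothing of which factor is bound.

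Upstream of Gata2, 4T1 alone had a region at -19.0 kb (chr6:88174450-88175149, intergenic) that was called in all 6 4T1 libraries and in no B16F10 library. Its percentiles were 80.0, 81.4 and 75.9 in DAC-treated 4T1, against 45.2, 51.1 and 45.4 in untreated 4T1. All 3 DAC libraries lay well above all 3 control libraries. Ranked among the 67077 regions called in all 6 4T1 libraries, it stood at 65.7 ± 3.11 with DAC and 29.8 ± 2.73 without (SD, n = 3 each), a difference of 35.9 points that exceeded the shift of 96.6% of those regions (exact permutation p of 0.10, adjusted p = 0.16). Its authors' fold enrichment was 13.9, 14.3 and 11.8 with DAC against 9.94, 11.1 and 9.58 without, so it went against the lower fold of most shared regions. Repeats masked in the genome sequence make up 56.6% of this region, against a median of 10.2% over regions called in all 6 4T1 libraries. A neighbour at -17.4 kb was called in 3 DAC libraries, at percentiles 55.7, 56.5 and 56.7, and in 1 control library at 24.7. The summit of the -19.0 kb region is printed with its single GATA hexamer and its AP-1 heptamers in capitals (chr6:88174718-88175017, plus strand). A GATA hexamer was GATA with A or T before it and A or G after it, and an AP-1 heptamer was TGACTCA or its reverse complement, each searched on both strands.
Gata2 -19.0 kb: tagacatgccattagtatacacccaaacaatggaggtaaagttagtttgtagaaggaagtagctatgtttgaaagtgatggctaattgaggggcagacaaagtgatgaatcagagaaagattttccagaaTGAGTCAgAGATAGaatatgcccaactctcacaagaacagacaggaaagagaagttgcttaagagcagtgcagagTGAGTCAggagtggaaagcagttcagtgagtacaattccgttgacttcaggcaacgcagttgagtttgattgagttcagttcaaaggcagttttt

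The last Gata2 region of interest was called in other groups in each line. It lies 48.9 kb downstream, in an intron of the chaperone gene Dnajb8, and in B16F10 it was called in the DAC libraries alone, at percentiles 44.4, 49.9 and 40.3, with no peak in any control library. It was the only region called in DAC libraries alone near the 4 genes in B16F10, where 2.26% of all 79494 regions were. In 4T1 the same place was called in all 6 libraries, at 62.6, 67.8 and 63.8 with DAC and 57.7, 59.1 and 54.8 without. Its summit sequence (chr6:88242651-88242950, plus strand) is printed with CG dinucleotides, the sites of DNA methylation, in capitals; it holds 14 of them, 4.67 per 100 bases.
Gata2 48.9 kb: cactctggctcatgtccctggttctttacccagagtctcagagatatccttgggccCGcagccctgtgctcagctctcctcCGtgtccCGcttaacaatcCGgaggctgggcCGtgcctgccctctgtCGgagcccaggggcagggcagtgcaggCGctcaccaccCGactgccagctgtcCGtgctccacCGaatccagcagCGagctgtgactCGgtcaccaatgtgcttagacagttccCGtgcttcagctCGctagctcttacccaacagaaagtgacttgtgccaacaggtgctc

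**Figure D1:**
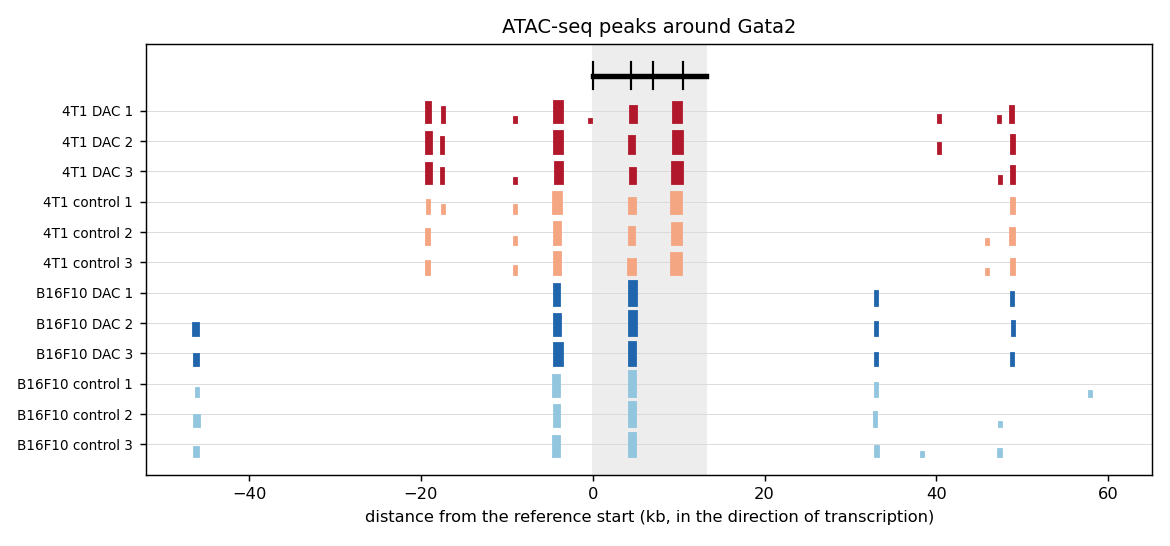
Peaks of the 12 libraries (rows) around Gata2 against distance from the distal transcript start in kb; the black line and grey band show the gene, black ticks its transcript starts, and the height of a bar the percentile of the peak within its library (short peaks are widened to be visible). The proximal start and the region at -4.10 kb carry bars in every row, the intronic region at 9.63 kb and the upstream region at -19.0 kb in the 4T1 rows alone.

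Gata4 lies at chr14:63198922-63271692 on the minus strand. Its product drives heart and foregut formation with NKX2-5 and TBX5, and works in the gonad and gut. Distances run from the main coding transcript start at position 63245248. The contrast between the lines was starkest at this gene: none of its 5 transcript starts had a peak in any of the 6 B16F10 libraries, whereas the main start and a distal start were called in all 6 4T1 libraries, a pattern shared by 6.11% of all genes. At the main start the percentiles were 85.4, 85.0 and 82.8 in DAC-treated 4T1 and 81.1, 84.1 and 80.2 in untreated 4T1. Among shared regions the main start ranked 74.1 ± 1.83 with DAC and 75.1 ± 2.43 without (SD, n = 3 each), with overlapping groups (exact permutation, adjusted p = 0.67). Ranked by fold enrichment instead, it stood at 72.0, 69.6 and 69.2 with DAC and 87.2, 87.4 and 85.6 without, every DAC library below every control library. That difference of -16.5 points exceeded the shift of 72.6% of shared regions (exact permutation p of 0.10, adjusted p = 0.16). The Gata4 promoter was therefore already open in untreated 4T1.

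Of the 19 regions within 50 kb of Gata4 in the 12 libraries together, 9 (47.4%) were called in all 6 4T1 libraries and in no B16F10 library, a pattern found in 19.0% of all 179635 regions. They ran from -67.0 to 59.2 kb and included introns at -10.8 and 22.9 kb. B16F10 libraries had peaks inside the gene in introns at 30.1 and 38.0 kb, in 2 and 3 of 6 libraries. The neighbouring genes showed that the melanoma line was not closed throughout the locus. The start of Fdft1, which encodes squalene synthase, was open in all 12 libraries, and the start of Neil2, a DNA glycosylase gene, was open in all 6 B16F10 libraries at percentiles 79.9 to 85.8, against weak peaks at 4.9 and 5.2 in 2 DAC-treated 4T1 libraries. The sequence at the Gata4 main start, upstream of it on the minus strand (chr14:63245272-63245465), holds 20 CG dinucleotides, 10.3 per 100 bases, shown in capitals.
Gata4 main start: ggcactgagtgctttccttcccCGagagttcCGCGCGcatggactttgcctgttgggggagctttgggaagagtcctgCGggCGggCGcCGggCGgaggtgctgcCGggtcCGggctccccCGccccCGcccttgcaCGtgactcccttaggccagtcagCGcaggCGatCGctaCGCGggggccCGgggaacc

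With DAC, the clearest difference at Gata4 lay upstream. A region at -36.8 kb (chr14:63280775-63282275, intergenic) had 1 broad peak of 1219, 1435 and 1305 bp in the DAC-treated 4T1 libraries, against 2 shorter peaks adding to 479, 659 and 554 bp in the untreated ones. Its percentiles were 72.3, 70.9 and 72.6 with DAC against 23.3, 28.6 and 33.7 without. Among shared regions it ranked 55.1 ± 3.05 with DAC and 11.9 ± 3.56 without (SD, n = 3 each). The difference of 43.2 points exceeded that of 98.5% of shared regions (exact permutation p of 0.10, adjusted p = 0.16), and ranking by fold enrichment instead gave 47.9 points. A region at -67.0 kb also ranked higher with DAC, at 39.8 ± 3.76 against 19.2 ± 4.93 without, a difference of 20.7 points. Repeats masked in the genome sequence make up 62.9% of the -67.0 kb region and 12.1% of the -36.8 kb region. The median over regions called in all 6 4T1 libraries was 10.2%. Other Gata4 regions ranked lower with DAC in every library: the distal start at -26.3 kb stood at 4.54 ± 3.31 with DAC against 16.3 ± 2.49 without, and a region at 49.8 kb, downstream of the gene, at 36.6 ± 8.11 against 52.6 ± 3.02. One intronic region at 27.8 kb (chr14:63217325-63217488) was called in the DAC-treated 4T1 libraries alone, at percentiles 8.4, 25.6 and 32.3. The summit of the -36.8 kb region (chr14:63281872-63282171, minus strand) holds 3 GATA hexamers and 2 AP-1 heptamers, in capitals.
Gata4 -36.8 kb: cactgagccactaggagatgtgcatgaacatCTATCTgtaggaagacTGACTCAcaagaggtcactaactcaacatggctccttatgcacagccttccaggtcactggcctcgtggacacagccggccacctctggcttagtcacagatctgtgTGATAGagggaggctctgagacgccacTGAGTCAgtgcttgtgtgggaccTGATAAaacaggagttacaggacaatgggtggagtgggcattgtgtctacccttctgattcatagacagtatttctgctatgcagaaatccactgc

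The regions at -19.0 and -17.4 kb of Gata2 and at -36.8 and -67.0 kb of Gata4 each had at least 1 GATA hexamer and 1 AP-1 heptamer in the 300-base window on the summit. They were picked for their values, so no test applies. Other shared 4T1 regions near the 4 genes also ranked higher in every DAC library but lacked 1 or both motifs. The region at -10.8 kb of Gata4 held 2 GATA hexamers and no AP-1 heptamer. The region at 34.3 kb of Gata5 held 1 AP-1 heptamer and no GATA hexamer, and the start of Fdft1 held neither. Both motifs also stood in the Gata4 region at 22.9 kb, where treated and untreated ranks overlapped. The Gata6 region at 47.9 kb, called in 1 DAC and 2 control libraries of 4T1, held both. So did a Gata4 region at -29.0 kb, called in 2 DAC and 0 control libraries. The share of all regions holding both motifs was not counted. Of 4T1 regions called in DAC libraries alone, 24.0% held a GATA hexamer and 16.2% an AP-1 heptamer, against 32.3% and 29.1% of all 4T1 regions. Among all regions called in the 6 4T1 libraries, 31.0% held a GATA hexamer and 36.9% an AP-1 heptamer in such a window; among the 22 such regions near the 4 genes, 8 held the first and 11 the second. In B16F10, 9.21% of all regions held an AP-1 heptamer, against 29.1% in 4T1.

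**Figure D2:**
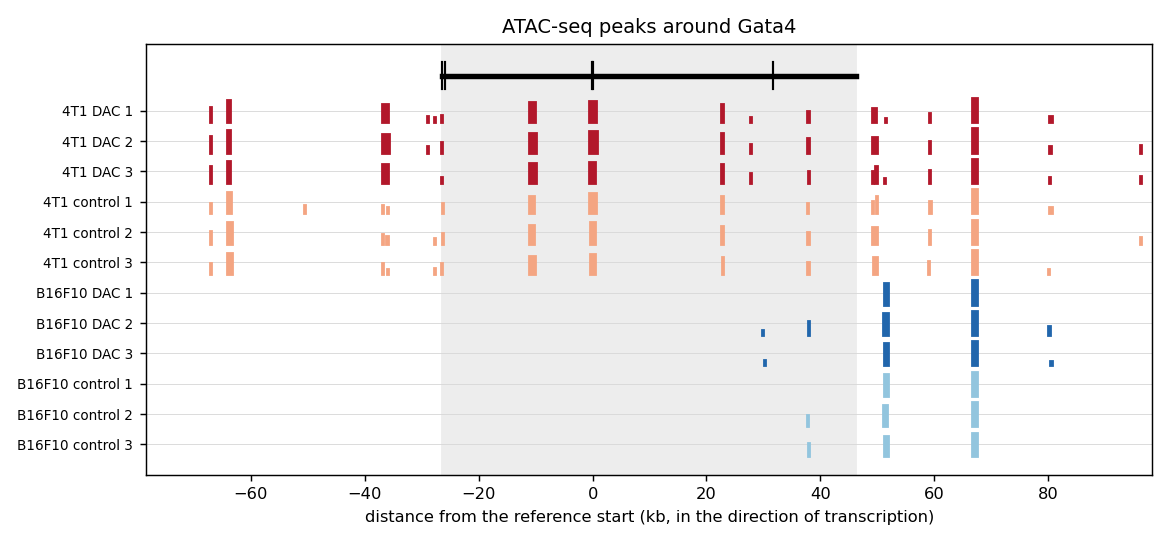
Peaks of the 12 libraries (rows) around Gata4 against distance from the main transcript start in kb, drawn as for Gata2. The 4T1 rows carry peaks through the locus, the B16F10 rows mainly at Neil2 and Fdft1 downstream of the gene, and the bars at -36.8 kb are taller and wider in the DAC-treated 4T1 rows than in the untreated ones.

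Gata5 lies at chr2:180325133-180334699 on the minus strand, with 1 annotated transcript start and an antisense gene, Gata5os, across its 5′ end. It acts in endocardium and heart valve formation, and in human colorectal and gastric cancers its promoter is often methylated. Its start was the only start among the 4 genes that was called in all 3 DAC-treated libraries and no untreated library of a line. In 4T1 the peaks covered 492, 179 and 457 bp of the start window with DAC and 0, 0 and 0 bp without, at percentiles 10.7, 0.78 and 9.0. No B16F10 library had a peak there. Of all genes, 4.42% had a start called in this way in 4T1 and 0.283% in B16F10. The peaks were weak, with fold enrichments of 3.20, 2.40 and 3.19: none was left when −log10 q had to reach 5, when the fold had to reach 5, or when the same number of peaks was kept in every 4T1 library. The exact permutation test on the bases covered gave p of 0.10 in 4T1 and an adjusted p of 0.31 over all genes. The peaks ran from 0.029 to 0.52 kb, from 0.273 to 0.451 kb and from -0.007 to 0.449 kb of the start in DAC libraries 1, 2 and 3, so that one of them covered the start itself. The exonic stretch at the summit (chr2:180334179-180334369, minus strand) has 19 CG dinucleotides, 9.95 per 100 bases, in capitals.
Gata5 start: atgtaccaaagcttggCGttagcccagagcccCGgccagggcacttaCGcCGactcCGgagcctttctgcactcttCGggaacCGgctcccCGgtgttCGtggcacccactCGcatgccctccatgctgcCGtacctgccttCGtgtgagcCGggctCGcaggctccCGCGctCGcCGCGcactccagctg

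A second stretch near Gata5 was called in the DAC-treated 4T1 libraries alone and was stronger. It lies 18.1 kb downstream of the start (chr2:180316499-180316860), beyond the 3′ end of the gene, at percentiles 23.5, 39.2 and 26.8. It was still called in 3 DAC and 0 control libraries when −log10 q had to reach 5 and when equal numbers of peaks were kept, and in 1 DAC library when the fold had to reach 5. Repeats masked in the genome sequence make up 91.2% of it, against a median of 37.5% for all 4T1 regions called in DAC libraries alone and 10.2% for those called in all 6. It has 4.42 CG dinucleotides per 100 bases, against medians of 3.05 and 1.39 in the same classes. Most of it (chr2:180316499-180316793, minus strand) is printed with its CG dinucleotides in capitals.
Gata5 18.1 kb: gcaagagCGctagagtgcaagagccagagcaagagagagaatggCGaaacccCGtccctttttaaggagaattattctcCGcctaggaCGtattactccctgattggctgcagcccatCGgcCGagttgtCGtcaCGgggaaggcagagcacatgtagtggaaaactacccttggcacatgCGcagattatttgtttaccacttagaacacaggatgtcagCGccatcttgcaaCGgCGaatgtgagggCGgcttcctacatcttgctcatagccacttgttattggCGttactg
Another such region, 57.7 kb downstream beyond the gene Rbbp8nl, stood at percentiles 38.6, 37.5 and 23.8 in the DAC-treated 4T1 libraries, with fold enrichments of 2.50, 2.39 and 2.14, and was called in all 6 B16F10 libraries. It too was still called in 3 DAC and 0 control libraries of 4T1 when −log10 q had to reach 5 and when equal numbers of peaks were kept, and in 0 when the fold had to reach 5. The one region near the 4 genes that 4T1 had in its 3 untreated libraries and no DAC library also lay here, at 20.4 kb, with percentiles of 4.5, 6.0 and 23.3. A region at -12.6 kb was open in all 12 libraries, at percentiles 61.9, 68.9 and 67.1 in DAC-treated 4T1, 58.1, 68.2 and 59.8 in untreated 4T1, 53.6, 61.3 and 57.8 in DAC-treated B16F10, and 61.2, 54.4 and 59.1 in untreated B16F10. These 4 ranges overlap. In B16F10, a weak peak at -2.4 kb in an intron of Gata5os was called in 1 DAC library and 3 control libraries.

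Gata6, at chr18:11052064-11085635 on the plus strand, is needed for endoderm and for pancreas and lung formation. It had the least accessible chromatin of the 4 genes. Of its 6 annotated starts, only a retained-intron start 2.57 kb inside the gene had a peak in its window, in DAC-treated 4T1 library 1 alone, at percentile 6.1 over a coding exon with 13.1 CG dinucleotides per 100 bases. The coding starts were closed in all 12 libraries. A single region near the gene, at 48.6 kb and downstream of it, was called in all 6 4T1 libraries. It ranked lower with DAC among shared regions, at 10.1 ± 4.08 against 23.6 ± 3.11 without (SD, n = 3 each). B16F10 had 1 peak in DAC library 2 and 1 in control library 1 within 50 kb, and no region in more than 1 library.

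**Figure D3:**
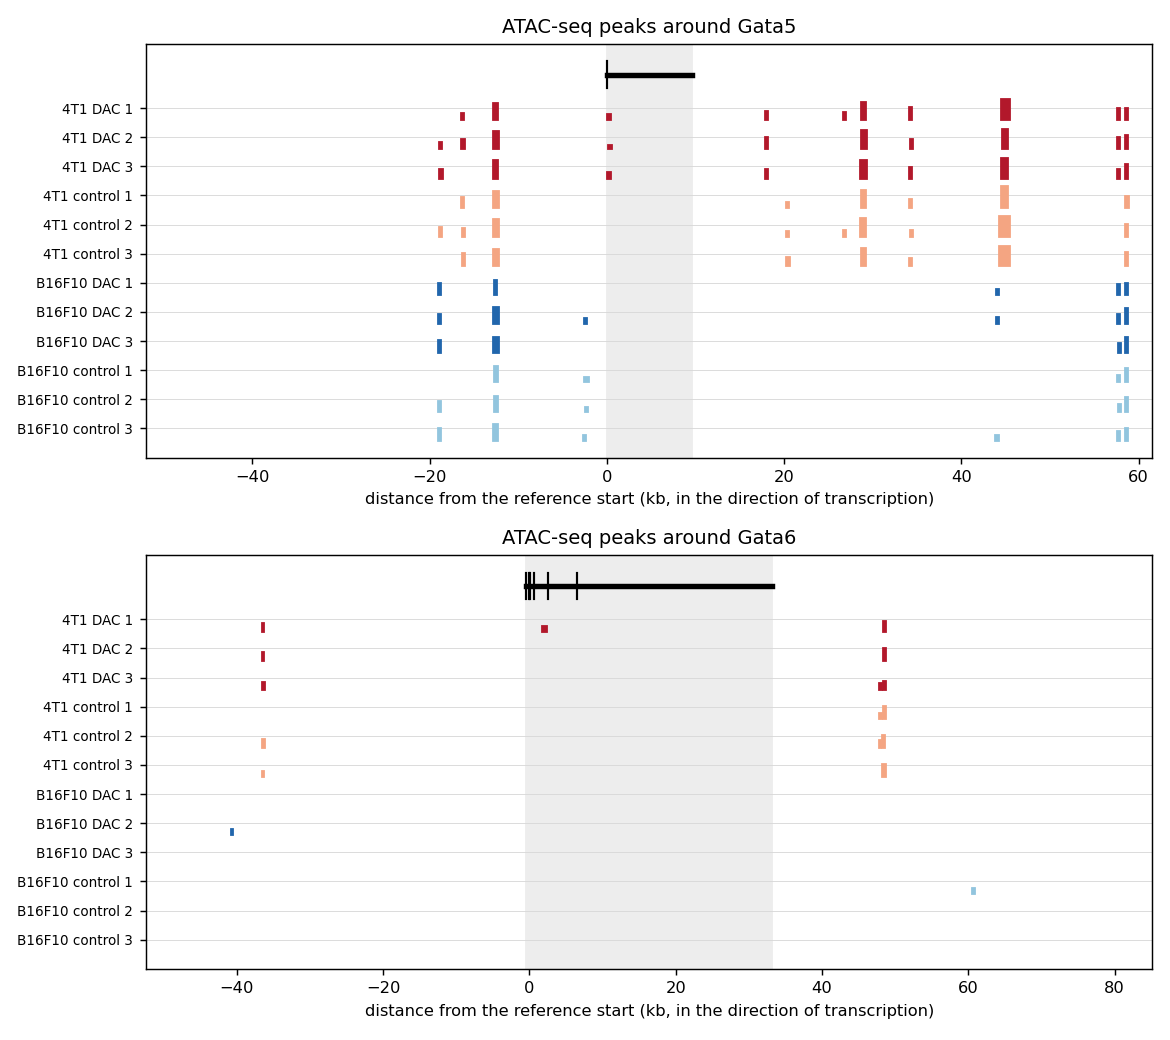
Peaks of the 12 libraries (rows) around Gata5 (top) and Gata6 (bottom) against distance from the transcript start in kb, drawn as for Gata2. At the Gata5 start only the 3 DAC-treated 4T1 rows carry bars, all of them short, and inside Gata6 only the row of DAC-treated 4T1 library 1 does.

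Over the 4 genes together, 45 regions were found within 50 kb in 4T1 and 21 in B16F10. In 4T1, 4 regions (8.89%) had peaks in the 3 DAC libraries and no control library, against 12% of all regions, 1 (2.22%) in control libraries alone, against 3.57%, and 22 (48.9%) in all 6 libraries, against 45.7%. In B16F10, 1 region (4.76%) was called in DAC libraries alone, against 2.26% of all regions. Control libraries alone had 0, against 0.886%, and 8 (38.1%) were called in all 6, against 45.3%. The members' shares were thus near those of the genome in 4T1. The count of 4 fell to 2 with −log10 q of at least 5 and with equal numbers of peaks, and to 0 with a fold of at least 5. Over the 12 libraries, 19 of 54 regions (35.2%) were called in all 3 untreated 4T1 libraries and no untreated B16F10 library, against 26.3% of all regions. The opposite held for 5 regions (9.26%), against 7.45%. With equal numbers of peaks in all 12 libraries, the first count was 9 and the second 5. The shares of all regions under that setting were not computed. Treated libraries were not used for these counts. With them, 15 regions (27.8%) were called in all 6 4T1 libraries and no B16F10 library, against 19.0% of all regions. All 12 libraries had a peak at 5 regions (9.26%), against 12.6% of all regions.

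**Figure D4:**
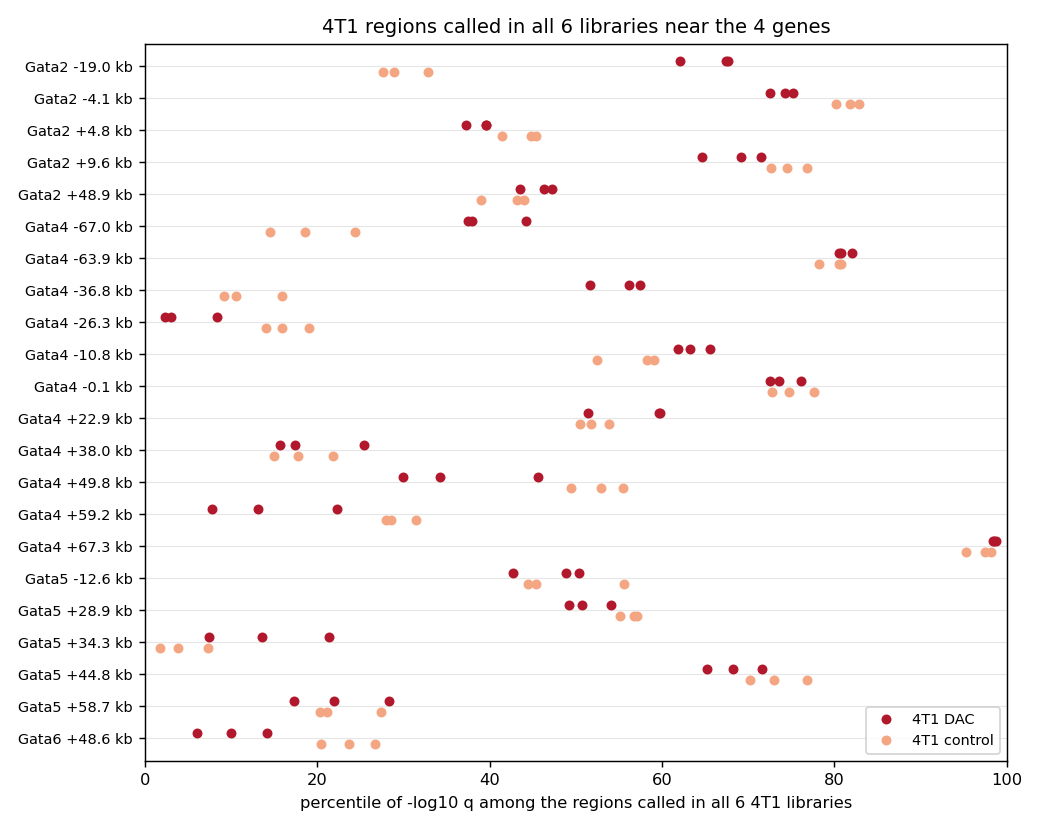
Percentile of −log10 q among the 67077 regions called in all 6 4T1 libraries, for the 22 of them near the 4 genes; each point is a library, and labels give the summit's distance from the gene's reference start. The regions at -19.0 kb of Gata2 and at -36.8 kb of Gata4 show the widest gaps between DAC-treated and untreated libraries.

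Of the 22 regions called in all 6 4T1 libraries, 6 ranked higher by −log10 q in every DAC library than in every control library and 8 ranked lower, against 30.8% and 30.7% of all such regions. In B16F10, treated and untreated ranks by −log10 q overlapped at all 8 such regions, where 12.7% of all regions ranked higher in every DAC library and 12.7% lower. Ranked by fold enrichment instead, 4 of the 22 were higher and 10 lower in 4T1. In B16F10, 1 of the 8 was higher by fold rank and 0 lower. The shares of all regions by fold rank are not given here. Fold enrichment itself was lower in every DAC library than in every control library at 17 of the 22 4T1 regions, against 55.9% of all such regions, and higher at 4, against 12.3%. Those 4 were the Gata2 region at -19.0 kb, the Gata4 regions at -67.0 and -36.8 kb, and the start of Fdft1. In B16F10 it was lower in every DAC library at 2 of the 8 regions, against 26.1%, and higher at 0, against 4.73%.

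The bases covered by peaks sum up each locus. At transcript starts in 4T1, Gata4 had 1547, 1725 and 1656 bp with DAC and 1519, 1326 and 1407 bp without. The groups did not overlap, as for 12.2% of all genes in this direction, and averaged 1643 ± 89.7 and 1417 ± 96.9 bp (SD, n = 3 each; exact permutation p of 0.10, adjusted p = 0.31). With start windows of 500 bp on either side the Gata4 difference was -16.7 bp and with a fold of at least 5 it was -38.0 bp. Gata2 had 1710 ± 159 bp with DAC and 1616 ± 133 bp without in 4T1, and 902 ± 44.0 and 864 ± 28.9 bp in B16F10, with overlapping groups in both lines. In the gene and 50 kb on either side in 4T1, Gata2 had 4882 ± 152 bp with DAC and 4207 ± 118 bp without, Gata4 9231 ± 535 and 7971 ± 150 bp, and Gata5 3864 ± 80.3 and 3369 ± 465 bp. In all 3 cases every DAC library lay above every control library, as for 33.6% of all genes (exact permutation p of 0.10, adjusted p = 0.19 each). The Gata5 difference of 495 bp was 234 bp without control library 1, which had 2846 bp against 3738 and 3522 bp in the other controls. With equal numbers of peaks the differences were 251 bp for Gata2, 176 bp for Gata4 and 24.3 bp for Gata5. With a fold of at least 5, the locus difference was -320 bp for Gata2 and -317 bp for Gata5. Gata6 had 723 ± 398 bp with DAC and 643 ± 278 bp without, and overlapped. In B16F10 treated and untreated libraries overlapped at all 4 loci.

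Over both lines, the Gata4 locus gave the lowest unadjusted p of the 4 genes, with a mean difference of 829 bp, an exact permutation p of 0.02 over 400 relabellings and an adjusted p of 0.13; with equal numbers of peaks the difference was 152 bp (p = 0.495 by the same exact test), and with the replicate number as a block the exact p was 0.0625. No gene of the 21911 passed an adjusted p of 0.05 at starts or over loci; 2304 and 5345 genes had an unadjusted p under 0.05. The test of the difference between the lines in the DAC change gave unadjusted exact permutation p-values of 0.64 for Gata2, 0.10 for Gata4, 0.10 for Gata5 and 1.0 for Gata6 at starts. Adjusted over all genes, none fell below 0.42. Gata4, Gata5 and Gata6 had 0 bp at starts in every B16F10 library, so only the 20 relabellings within 4T1 counted. Their p could not be under 0.10, and for Gata6, with bases in DAC-treated 4T1 library 1 alone, it was fixed beforehand. At starts the test therefore cannot decide the question for these genes. Over the gene and 50 kb, unadjusted exact permutation p-values were 0.125 for Gata2, 0.235 for Gata4, 0.26 for Gata5 and 0.67 for Gata6. It was thus not shown that DAC changed the accessibility of any of the 4 genes differently in the 2 lines.

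**Figure D5:**
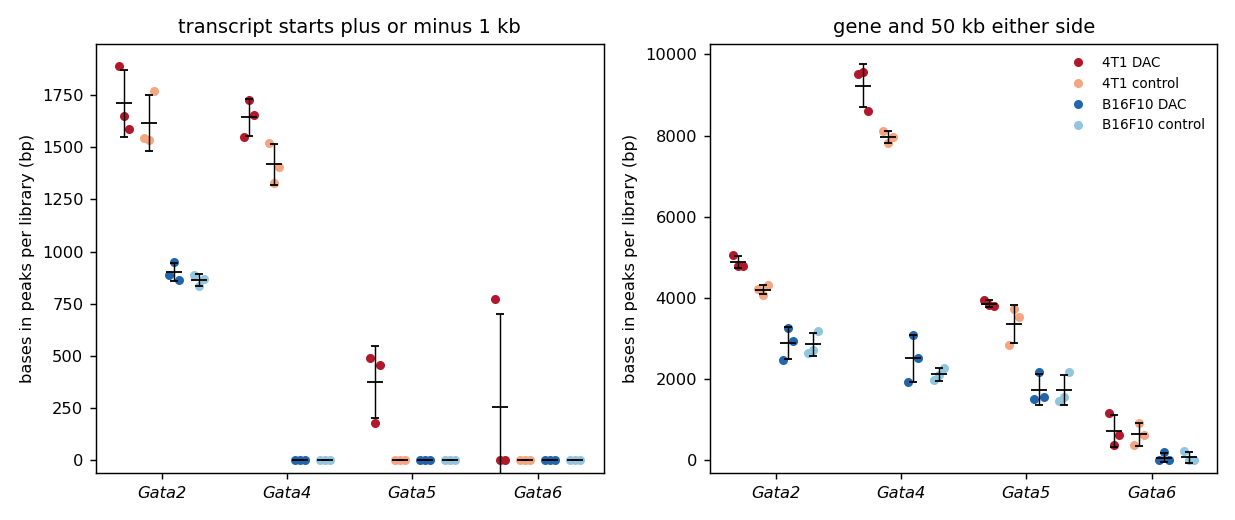
Bases covered by peaks in each library at the transcript starts (left) and in the gene with 50 kb on either side (right); points are libraries, and the bars with whiskers are means and SD of 3 libraries. Gata4, Gata5 and Gata6 have 0 bp at their starts in all B16F10 libraries, and Gata5 has bases at its start in the 3 DAC-treated 4T1 libraries alone.

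Other genes of the GATA pathway were read from a list of 25: other family members, the FOG cofactors that bind GATA zinc fingers, and partners in blood and in heart and endoderm. In 4T1, 6 of them (24%) had a start called in DAC libraries alone, where 4.42% of all genes did, 1 in control libraries alone, where 0.361% did, and 9 in all 6 libraries, where 59.3% did. In B16F10, 0 were called in DAC libraries alone, 8 were called in all 6 libraries and 17 in none, against 52.6% and 41.4% of all genes. The list was drawn up with results of these data known. The stricter q, fold and equal-number settings, under which the Gata5 start call was lost, were not applied to these start calls. The cofactor Zfpm2 (FOG2), a partner of Gata4 in the heart, was at percentiles 17.4, 23.6 and 16.2 in DAC-treated 4T1 and had no peak in untreated 4T1. Of the blood partners, Tal1, a basic helix-loop-helix factor that binds E-boxes, was at 17.4, 23.6 and 22.8, and the ETS factor Fli1 at 40.0, 46.3 and 25.7, both without a peak in untreated 4T1. Of the heart and endoderm partners, Hand2, Isl1 and Sox17 were called in DAC-treated 4T1 alone. Hand2 was at 16.6, 18.7 and 19.8 and Isl1 at 15.3, 40.4 and 18.4. Sox17, an endoderm and endothelial factor, was the strongest at 44.7, 41.3 and 33.2. Spi1, which encodes the myeloid factor PU.1, went the other way: it had no peak in DAC-treated 4T1 and stood at 32.1, 29.8 and 23.3 in untreated 4T1. None of these 7 starts had a peak in B16F10.

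Within the family, Gata3 had peaks at its starts in all 12 libraries, at percentiles 97.4, 97.4 and 97.8 in DAC-treated 4T1, 95.3, 94.3 and 96.9 in untreated 4T1, 90.8, 91.5 and 91.1 in DAC-treated B16F10, and 94.6, 91.8 and 91.6 in untreated B16F10. Gata1, the erythroid member, had none in any library. By the strongest peak at a start in each library, the order in 4T1 was Gata3, then Gata4 and Gata2, then Trps1, a repressor with a GATA-type zinc finger, at 60.0 to 73.7, then the weak peaks of Gata5 and Gata6 in DAC-treated libraries. In B16F10 it was Gata2, above Gata3 in each of the 6 libraries though their ranges overlap, then Trps1 at 66.7 to 71.4, and Gata1, Gata4, Gata5 and Gata6 had no start peak. Gata4 and Gata2 had neighbouring values in 4T1, since the intronic Gata2 region reached 78.2 to 83.7 and the Gata4 start 80.2 to 85.4. The proximal Gata2 start, at 56.5 to 62.1, lay below Trps1 in each 4T1 library. In B16F10 the Gata2 value is that of the proximal start, so the 2 orders rest on different Gata2 regions.

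For each gene with a start peak in some but not all libraries, the genes with the most similar percentiles over the 12 libraries were found by Pearson correlation, as a description. For Gata4 these were Havcr2, Dusp14 and Ddb2, at r between 0.99992 and 0.99994, and 3542 genes reached an r of 0.9, because being called in 4T1 and not in B16F10 fixes most of the pattern. For Gata5 they were Lrat, Qrfpr and Gm13090, among 101 genes at 0.9 or above. For Gata6, with a start peak in 1 library, 173 genes reached 0.9, and the order among them is a tie.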

How the data were processed

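The 12 files were peak lists in narrowPeak format, 1 deposited for each library; the submitters' processing notes name the build mm10 and, without versions or settings, Bowtie2, Picard, MACS2, DiffBind and ChIPseeker. Each deposited list gives a peak's fold enrichment (a ratio), its −log10 p and −log10 q values and an integer score, all the authors' own; fold and −log10 q were used to rank and filter peaks within a list, −log10 p and the score were not. The lists end at q of 0.05, and the read depth behind them was not analysed here. One B16F10 DAC list held peaks on the 21 chromosomes alone, so all were limited to these.

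Genes and transcript starts came from GENCODE M21 (GRCm38), sequences from the RefSeq GRCm38.p6 genome, the same assembly as mm10. Overlapping peaks (1 bp or more) were joined into regions, for each line and for the 12 libraries together; a region counted as called in a group alone with 3 of 3 libraries against 0 of 3. Peak bases per gene were tested over 21911 genes by an exact two-sided permutation test that reassigned DAC and control: 20 ways in each line, where p cannot be under 0.10, and 400 ways for the 2 lines jointly, where it cannot be under 0.005, with Benjamini-Hochberg adjustment; the code was tested on simulated data. Genes named are the 4 members, the list of 25 pathway genes where called in one arm alone, the marker genes, the neighbours of the 4 genes, and the 3 genes most like each member. One further gene of that list is not reported here and is outside its counts. The members and lists were chosen with earlier results of these data known, and the ranks among shared regions were added after the data were seen. Alternatives were stricter q or fold, equal numbers of peaks, other windows and distances, a replicate block and leaving out each library.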

Additional observations from a re-analysis of the deposited data

How the results depend on the processing

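Kept under every alternative run were the 0 genes past the adjusted p of 0.05 in the 3 tests of peak bases, and the 0 members with a start called in DAC libraries alone in B16F10. With the replicate block the count of 0 genes could hardly have been otherwise, as given below. The number of members with a start called in DAC libraries alone in 4T1, 1 as reported, was 0 with −log10 q of at least 5, 0 with a fold of at least 5 and 0 with equal numbers of peaks, since the weak Gata5 peaks are then left out. Regions called in DAC libraries alone in 4T1 (4 as reported) numbered 2, 0 and 2 under those settings, 8 with 2 or 3 of 3 libraries, and 4 to 6 when a library was left out. Regions called in control libraries alone in 4T1 (1 as reported) numbered 2 with a fold of at least 5, 2 with equal numbers of peaks, 2 with 2 or 3 of 3 libraries, and 1 to 2 when a library was left out (2 without control library 1). In B16F10 the region called in DAC libraries alone became 3 with 2 or 3 of 3 libraries, 0 within 25 kb, and 1 to 3 when a library was left out (3 without DAC library 1); those called in control libraries alone became 1 with 2 or 3 of 3 libraries and 0 to 1 when a library was left out (1 without DAC library 2 or control library 1). Regions called in all 6 libraries numbered 43 in 4T1 and 22 in B16F10 within 100 kb. Between untreated libraries, regions called in the 3 of 4T1 and none of B16F10 numbered 9 with equal numbers of peaks, and those called in the 3 of B16F10 and none of 4T1 numbered 2 with a fold of at least 5. Directions that turned round were those of Gata4 at starts in 4T1 (-38.0 bp with a fold of at least 5, -16.7 bp with 500 bp windows) and over both lines (-19.0 and -8.33 bp), of the Gata2 and Gata5 loci in 4T1 (-320 and -317 bp with a fold of at least 5), and of the Gata4 region at -10.8 kb, whose rank difference of 6.95 points was -9.30 when ranked by fold; beyond the lower fold of DAC-treated 4T1 libraries given in the report, the cause was not tested. Gata2 at starts in 4T1, where groups overlapped (94.0 bp), was -704 bp with a fold of at least 5. In all, 24 values of results with overlapping groups changed sign. Same-numbered libraries did not deviate together, so the numbers are not known to pair the libraries. Over genes with starts called in all 6 libraries, r was 0.011, 0.0302 and 0.0145 in 4T1 and -0.0279, -0.0533 and 0.0122 in B16F10. With the replicate block 0 genes passed, as without it. The block allows far fewer relabellings, so an adjusted p under 0.05 would need most genes tied at the smallest p. That count of 0 was therefore all but fixed beforehand and adds nothing to the result. Peak calls from 3 libraries a group cannot reach p under 0.10 within a line.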
